A study of Mus musculus with 6 samples.

Results

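Transcripts of 6 immediate early genes (Fos, Fosb, Jun, Junb, Egr1 and Ier2) and 4 glucocorticoid-induced genes (Fkbp5, Tsc22d3, Sgk1 and Zbtb16) were measured in irradiated and untreated mouse parotid glands. The 10 genes were chosen by symbol, matched to the Ensembl identifiers of the deposited tables, and kept as separate arms of 6 and 4 genes. They are 10 of the 52636 genes listed, and 9 of them were among the 12885 genes with enough reads to be tested. RNA came from the parotid gland, a salivary gland made largely of enzyme-secreting acinar cells, of mice of the inbred FVB strain at 28 days of age. The irradiated group was 3 samples after a single 5 Gy radiation dose, and the untreated group was 3 samples of the same strain and age. The labels give neither the time from radiation to collection nor the time of day, and leave unsaid whether the samples are from different mice, so the p-values measure only the spread between these samples.

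Immediate early genes are switched on within minutes of a growth factor, stress or calcium signal, without new protein synthesis, by factors already bound at their promoters. Their messages are short-lived, and handling of a tissue before freezing is known to induce them. Glucocorticoid-induced genes are switched on when the hormone-bound glucocorticoid receptor enters the nucleus and binds glucocorticoid response elements, and their levels follow the daily hormone rhythm and acute stress.

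The label check came out as labelled. Cdkn1a, a p53 target whose product p21 blocks the cell cycle, stood at 21.8, 26.0 and 18.04 CPM (reads scaled to library size) in irradiated replicates 1, 2 and 3, against 2.14, 1.84 and 2.27 CPM in untreated replicates 1, 2 and 3. Acinar cell markers summed to between 361772 and 457632 CPM in irradiated glands and between 398950 and 478605 CPM in untreated glands, as the tissue label says. Libraries held between 7108359 and 15036193 reads in genes. Irradiated replicate 2 stood apart from the other libraries. It was the shallowest, and 10.01% of its reads did not align. Results for members that turn on it are given with and without it.

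The promoters of Fos, Jun and Sgk1 are printed because each holds letters of an element through which its class of gene is classically switched on. Each line gives the 250 bases before a RefSeq transcript start, from 5′ to 3′ on the gene's own strand, in the GRCm38.p6 assembly, with the matched letters in capitals. The windows are chr12:85473640-85473889 (plus strand) for Fos, chr4:95052223-95052472 (minus strand) for Jun and chr10:21993640-21993889 (plus strand) for the Sgk1 start that holds the element.
Fos: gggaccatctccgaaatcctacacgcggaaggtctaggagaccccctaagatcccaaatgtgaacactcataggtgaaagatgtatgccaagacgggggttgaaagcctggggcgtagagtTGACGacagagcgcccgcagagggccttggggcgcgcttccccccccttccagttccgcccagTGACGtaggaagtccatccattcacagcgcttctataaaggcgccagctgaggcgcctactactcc
Jun: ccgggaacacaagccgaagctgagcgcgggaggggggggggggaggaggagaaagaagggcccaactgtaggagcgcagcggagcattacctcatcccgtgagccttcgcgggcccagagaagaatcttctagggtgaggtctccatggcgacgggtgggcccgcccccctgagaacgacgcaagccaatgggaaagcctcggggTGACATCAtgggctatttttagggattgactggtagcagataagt
Sgk1: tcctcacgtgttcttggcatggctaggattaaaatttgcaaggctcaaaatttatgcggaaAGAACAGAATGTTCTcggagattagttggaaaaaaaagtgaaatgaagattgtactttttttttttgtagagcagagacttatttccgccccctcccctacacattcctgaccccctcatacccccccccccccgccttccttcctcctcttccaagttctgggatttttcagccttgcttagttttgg

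The Sgk1 window held the palindromic glucocorticoid response element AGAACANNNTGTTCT, starting 189 bases before the transcript start. The windows of the other Sgk1 starts, and those of Fkbp5 and Tsc22d3, did not hold it. On either strand, 3 of the 32851 windows of all genes held it, or 0.00913%. The Jun window held TGACATCA, an AP-1-like element, starting 45 bases before the start, and 2.93% of all windows held those letters. In the Fos window TGACG, the first letters of the cyclic AMP response element TGACGTCA and contained in it, started 129 and 66 bases before the start, and 17.8% of all windows held them. Of the 10 members, 7 were matched in the RefSeq table, with 14 windows. TGACG was in at least 1 window of 5 of these 7 genes, beside 19.8% of all genes. Sgk1 and Tsc22d3 were among the 5, so both arms held it. Each of these has several windows, not all of which held it, and the arms were not compared per window. In these 14 windows the full TGACGTCA (1.55% of all windows), the AP-1 element TGANTCA (6.75%) and the core of the serum response element (1.47%) were not matched. A match describes letters in this window and not a bound site, and a missing match says only that the letters are not in it.

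None of the 10 members passed the test between irradiated and untreated glands. In the edgeR quasi-likelihood test, 0 of 9 tested members were called at a Benjamini-Hochberg adjusted p under 0.05, 0 of them higher and 0 lower. DESeq2 and limma-voom also called 0. Over all tested genes the share called was 1.00%, with 0.652% called higher and 0.349% called lower in irradiated glands. With an unadjusted p under 0.05 there was 1 of the 9 tested members, Zbtb16, beside 14.97% of all tested genes. Zbtb16 was also the 1 member whose irradiated and untreated libraries did not overlap. Among all tested genes, groups did not overlap for 21.2%, and for 10.6% the irradiated libraries were all the lower ones. The median log2 fold change, irradiated over untreated, was 0.05 over the 5 tested immediate early genes and -0.00 over the 4 glucocorticoid-induced genes, beside -0.01 over all tested genes. Without irradiated replicate 2 these medians were -0.04 for the immediate early genes and -0.28 for the glucocorticoid-induced genes, and without untreated replicate 2 they were 0.50 and 0.04.

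**Figure D1:**
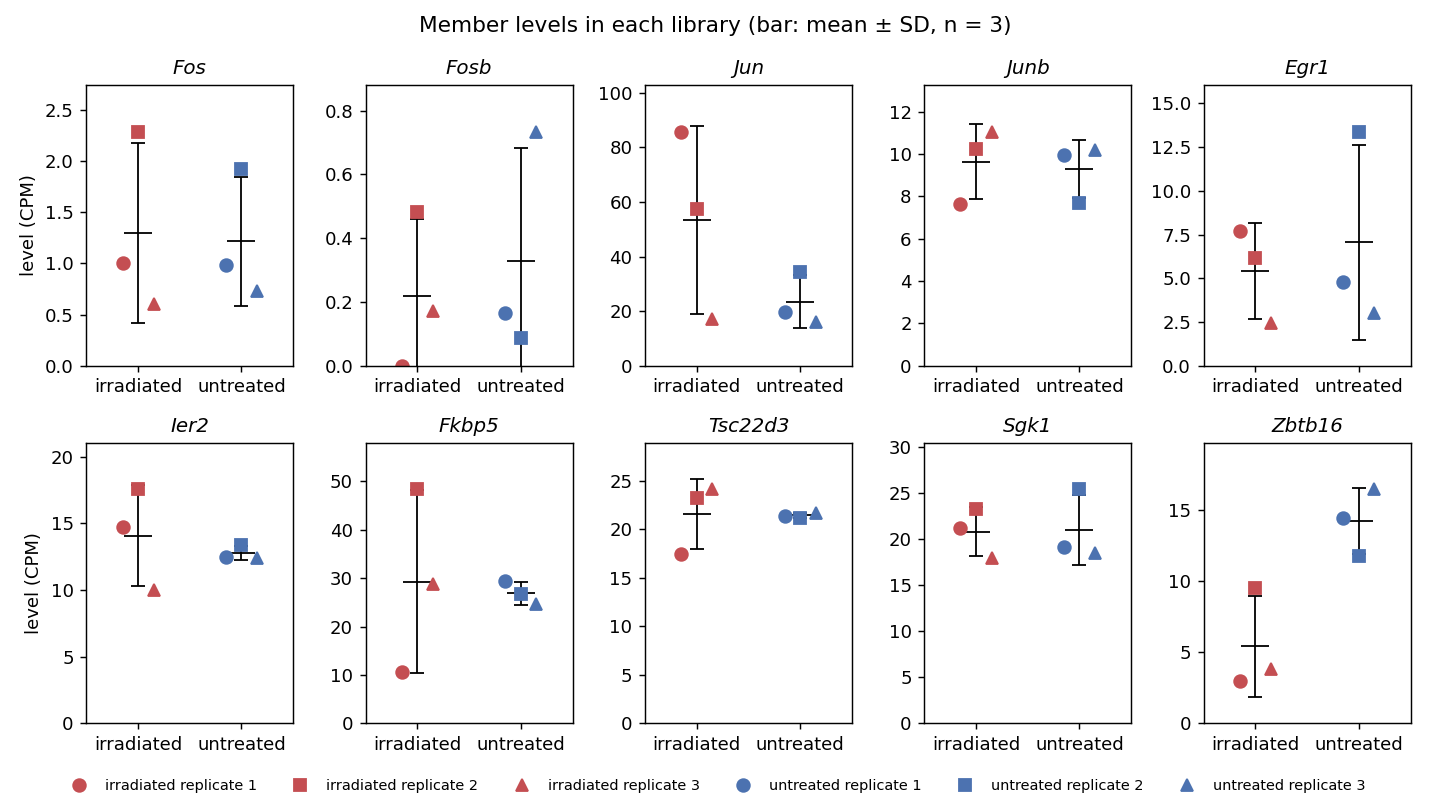
Level of each member in CPM (vertical axis, a separate linear scale for each gene, starting at 0) in the 3 irradiated libraries (red, left) and the 3 untreated libraries (blue, right), with bars for the mean ± SD (n = 3 each; bars that reach below 0 end at the axis). Zbtb16 is the gene whose groups do not overlap, and Jun and Fkbp5 spread most widely among irradiated glands.

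The AP-1 transcription factor is a pair of Fos and Jun family proteins. Fos lies on chromosome 12 from 85473890 to 85477273 on the plus strand (GENCODE M21 on mm10, as for every gene position here). It stood at 1.00, 2.29 and 0.604 CPM in irradiated replicates 1, 2 and 3, against 0.987, 1.92 and 0.734 CPM in untreated replicates 1, 2 and 3. These are between 7 and 19 reads per irradiated library and between 11 and 22 reads per untreated library, so the gene was close to the lower limit of what was tested, and the groups overlapped almost fully. The log2 fold change was 0.05 (SE 0.54, 95% interval -1.08 to 1.18). It was -0.55 without irradiated replicate 2 and 0.53 without untreated replicate 2, the glands with the most Fos in each group.

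Fosb, a relative of Fos that also pairs with Jun proteins, lies on chromosome 7 from 19302696 to 19310051 on the minus strand. It had 0, 4 and 2 reads in irradiated replicates 1, 2 and 3, against 2, 1 and 11 reads in untreated replicates 1, 2 and 3. In total 6 reads fell on it in irradiated glands and 14 in untreated glands, of which untreated replicate 3 alone gave 11. It did not pass the filter on low counts and was not tested. The 0 in irradiated replicate 1 allows a level of up to 0.208 CPM, taking 3 reads as the limit. That limit is over the library total without the TMM factor used for the other CPM values, and it covers counting error only.

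Jun had the largest positive fold change among the members and a wide spread. The gene, the main Jun-family subunit of AP-1 and a target of the stress kinase JNK, lies on chromosome 4 from 95049034 to 95052222 on the minus strand. It stood at 85.7, 57.5 and 17.0 CPM in irradiated replicates 1, 2 and 3, against 19.8, 34.4 and 16.2 CPM in untreated replicates 1, 2 and 3. Irradiated replicates 1 and 2 were above all untreated glands, and irradiated replicate 3 lay among them. The means were 53.4 ± 34.5 CPM in irradiated glands and 23.5 ± 9.61 CPM in untreated glands (SD, n = 3 each). The log2 fold change of 1.20 (SE 0.72, 95% interval -0.76 to 3.15) had an adjusted p of 0.544 in edgeR (quasi-likelihood test, Benjamini-Hochberg). Without irradiated replicate 1, which had the highest level, the log2 fold change was 0.65, and without irradiated replicate 2 it was 1.15. In these whole-gland samples more cells of a type and more RNA per cell cannot be told apart.

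Junb, a Jun relative that can restrain Jun within AP-1, lies on chromosome 8 from 84974484 to 84978718 on the minus strand. It stood at 7.66, 10.2 and 11.1 CPM in irradiated replicates 1, 2 and 3, against 9.96, 7.69 and 10.2 CPM in untreated replicates 1, 2 and 3. The groups overlapped and the libraries differed little, with a log2 fold change of 0.04 (SE 0.18, 95% interval -0.34 to 0.42), or -0.0010 without irradiated replicate 2. Its interval excludes a 2-fold change, which the interval of Jun does not. Junb shares 173 exon bases with Prdx2 on the opposite strand, and Jun shares 232 with its antisense transcript Junos. How strand was set in the counting is not given, so reads of these pairs cannot be told apart. Junos had at most 10 reads in a library, against at least 197 for Jun. Prdx2 had between 302 and 657 reads in a library, against between 85 and 153 for Junb.

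Egr1 and Ier2 are the members outside AP-1. Egr1, a zinc finger transcription factor induced by growth factors and stress, lies on chromosome 18 from 34859823 to 34864984 on the plus strand. It stood at 7.72, 6.13 and 2.42 CPM in irradiated replicates 1, 2 and 3, against 4.77, 13.4 and 3.00 CPM in untreated replicates 1, 2 and 3. Both groups spread widely, with the highest level in untreated replicate 2 and the lowest in irradiated replicate 3. The log2 fold change was -0.34 (SE 0.78, 95% interval -2.46 to 1.77), without untreated replicate 2 it was 0.50, and without irradiated replicate 3 it was 0.01. Ier2, a small nuclear protein that acts in transcription, lies on chromosome 8 from 84661331 to 84662852 on the minus strand. Its level was 14.7, 17.6 and 10.02 CPM in irradiated replicates 1, 2 and 3, against 12.5, 13.4 and 12.4 CPM in untreated replicates 1, 2 and 3. The untreated glands lay close together, within the range of the irradiated ones, and the log2 fold change was 0.13 (SE 0.17, 95% interval -0.23 to 0.50). Without irradiated replicate 2 it was -0.04.

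**Figure D2:**
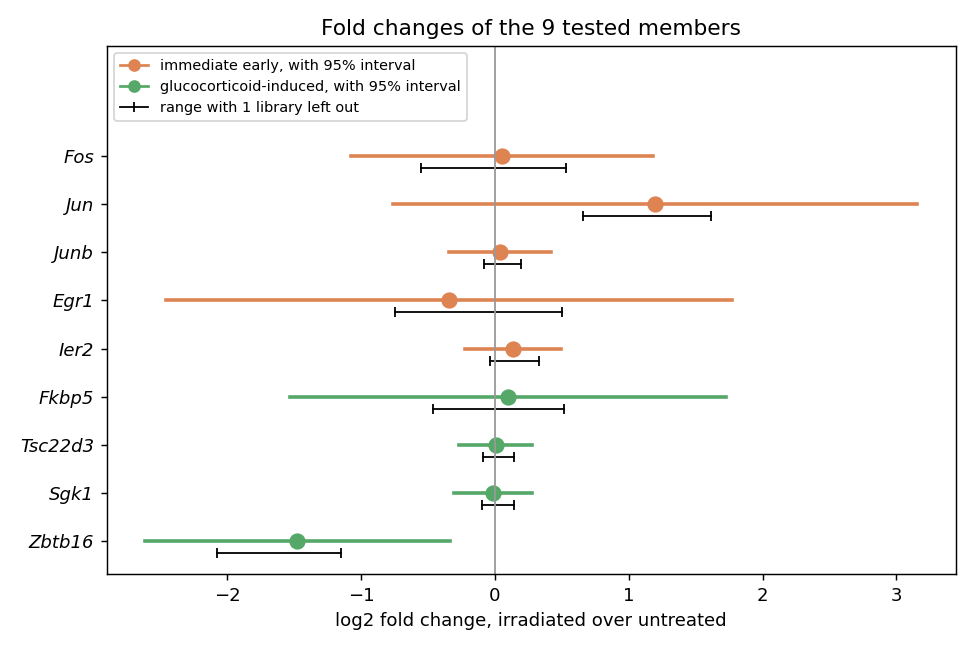
Log2 fold change of the 9 tested members, irradiated over untreated (horizontal axis), with the 95% interval as a coloured line and, under it, the range found when 1 library is left out. Every interval but that of Zbtb16, at -2.61 to -0.34, crosses 0, and the unadjusted interval of Zbtb16 is not corrected for the number of genes tested.

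Zbtb16 had the largest fold change of all members and lay lower in every irradiated gland, without passing the test. It encodes PLZF, a zinc finger repressor that glucocorticoids induce in many tissues, and lies on chromosome 9 from 48654297 to 48836222 on the minus strand. It stood at 3.00, 9.50 and 3.80 CPM in irradiated replicates 1, 2 and 3, against 14.5, 11.8 and 16.5 CPM in untreated replicates 1, 2 and 3. Irradiated replicates 1 and 3 were far below the untreated glands, and irradiated replicate 2 was just below the lowest of them. The means were 5.43 ± 3.55 CPM in irradiated glands and 14.3 ± 2.34 CPM in untreated glands (SD, n = 3 each). The log2 fold change was -1.48 (SE 0.45, 95% interval -2.61 to -0.34), that is 0.360 of the untreated level. With an unadjusted p of 0.0203, rank 1149 of the genes tested, it did not pass at an adjusted p of 0.227 in edgeR (quasi-likelihood test, Benjamini-Hochberg).

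Whether Zbtb16 passed turned on irradiated replicate 2 and on whether low counts were filtered at all. Without that library the log2 fold change was -2.08, with an adjusted p of 3.67e-05 in the edgeR quasi-likelihood test, and with any other library left out it lay between -1.59 and -1.15, with adjusted p-values from 0.350 to 0.426. With no filter on low counts, edgeR gave -1.49 with an adjusted p of 7.69e-09. That setting tested 25422 genes and called 279 higher and 239 lower, against 84 and 45 with the filter. With a filter at a mean of at least 1 CPM the edgeR adjusted p of Zbtb16 was 0.232. Under the main filter the adjusted p was 0.176 in DESeq2 and 0.0574 in limma-voom. Lists of cell type markers and clock genes had these values in the same libraries. The 10 skeletal muscle markers had negative fold changes in 10 of 10 genes, 0 called, and summed to 449, 524 and 175 CPM in irradiated replicates 1, 2 and 3, against 528, 646 and 667 CPM in untreated replicates 1, 2 and 3. None of them was at 0 in all libraries. T and natural killer cell markers had positive fold changes in 12 of 13 tested genes, 2 called higher, and summed to between 43.6 and 55.9 CPM in irradiated glands and between 2.62 and 22.4 CPM in untreated glands. B and plasma cell markers had positive fold changes in 9 of 11 tested genes, 1 called higher, and summed to between 74.9 and 81.4 CPM in irradiated glands and between 12.1 and 82.9 CPM in untreated glands. Fibroblast markers had negative fold changes in 8 of 8 genes, 1 called lower, and summed to between 898 and 1198 CPM in irradiated glands and between 1118 and 1803 CPM in untreated glands. No gene of these 3 lists was at 0 in all libraries. Of 20 circadian clock genes, 19 were tested, with 13 negative and 6 positive fold changes and 3 called lower. Their summed level was between 333 and 431 CPM in irradiated glands and between 525 and 572 CPM in untreated glands. Duct cell markers had negative fold changes in 8 of 10 genes, and summed to between 397 and 455 CPM in irradiated glands. In untreated glands their sum was between 486 and 531 CPM. Negative fold changes were in 6 of 7 tested myoepithelial, 6 of 7 tested fat cell and 8 of 11 tested macrophage and dendritic cell markers. They were in 6 of 10 acinar, 3 of 4 tested erythrocyte and 4 of 8 endothelial cell markers. The part of any of these lists in the Zbtb16 difference was not tested.

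The other glucocorticoid-induced members had fold changes near 0. Fkbp5 encodes a co-chaperone that lowers the hormone affinity of the receptor, and lies on chromosome 17 from 28399094 to 28517527 on the minus strand. It stood at 10.5, 48.4 and 28.8 CPM in irradiated replicates 1, 2 and 3, against 29.4, 26.7 and 24.6 CPM in untreated replicates 1, 2 and 3. Irradiated replicate 1 was below and irradiated replicate 2 above every untreated gland, and irradiated replicate 3 was close to them. The highest irradiated gland was 4.60 times the lowest, against 1.19 times among untreated glands. Without irradiated replicate 2 the irradiated ratio was 2.74. The log2 fold change was 0.09 (SE 0.60, 95% interval -1.53 to 1.72). It was 0.51 without irradiated replicate 1 and -0.47 without irradiated replicate 2, so its sign rests on which of these is kept.

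Tsc22d3, which encodes the anti-inflammatory leucine zipper protein GILZ, lies on chromosome X from 140539528 to 140600659 on the minus strand. It stood at 17.4, 23.2 and 24.1 CPM in irradiated replicates 1, 2 and 3, against 21.4, 21.2 and 21.7 CPM in untreated replicates 1, 2 and 3. The untreated glands were nearly level, and irradiated replicate 1 was the lowest of all. The log2 fold change was 0.00 (SE 0.13, 95% interval -0.27 to 0.28), or -0.05 without irradiated replicate 2. Sgk1, a kinase that raises sodium channel activity at the cell surface, lies on chromosome 10 from 21882184 to 21999903 on the plus strand and carries the glucocorticoid response element printed above. Its level was 21.2, 23.2 and 17.96 CPM in irradiated replicates 1, 2 and 3, against 19.1, 25.4 and 18.5 CPM in untreated replicates 1, 2 and 3. The groups overlapped throughout, with a log2 fold change of -0.01 (SE 0.14, 95% interval -0.31 to 0.28). Where reads were scaled by library totals alone, Sgk1 stood at 0.15 and Tsc22d3 at 0.15, beside a median over all genes of 0.14.

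Members varied between glands of the same group. Centred on each gene's own mean over the 6 libraries, the mean log2 level of the 5 tested immediate early genes was 0.34, 0.50 and -0.57 in irradiated replicates 1, 2 and 3, against -0.19, 0.37 and -0.45 in untreated replicates 1, 2 and 3. Each group thus held glands on both sides of the mean. Of these 5 genes, 3 (Fos, Egr1 and Ier2) were lowest in irradiated replicate 3, while Junb was lowest in irradiated replicate 1 and highest in irradiated replicate 3. The mean of the 4 glucocorticoid-induced genes was -0.74, 0.35 and -0.24 in irradiated replicates 1, 2 and 3, against 0.22, 0.21 and 0.20 in untreated replicates 1, 2 and 3. Zbtb16 alone stood at 0.80, 0.51 and 0.99 in untreated replicates 1, 2 and 3, where the others lay between -0.16 and 0.29. In irradiated replicate 1 Zbtb16 and Fkbp5 stood at -1.41 and -1.27, against -0.29 for Tsc22d3 and 0.03 for Sgk1. Of the 4 genes, 3 (Fkbp5, Tsc22d3 and Zbtb16) were lowest in irradiated replicate 1, where Jun was highest. Untreated glands agreed closely in this mean, although Zbtb16 and Sgk1 each varied among them.

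**Figure D3:**
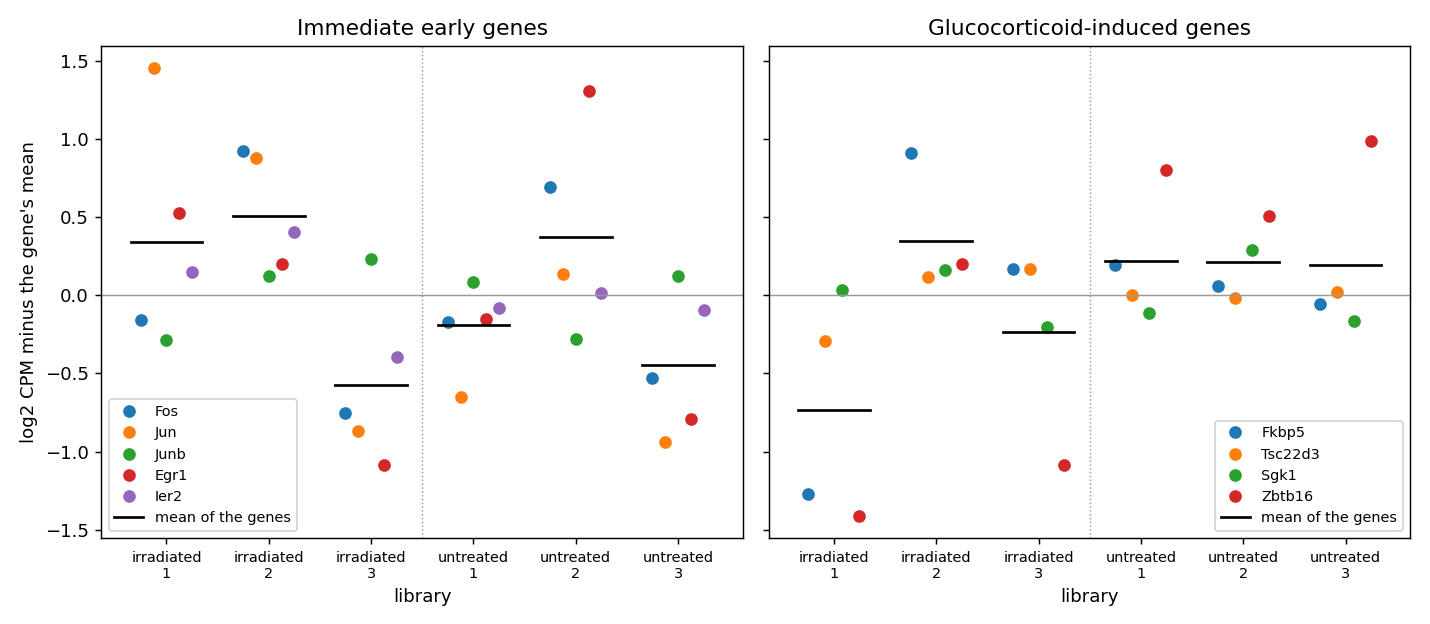
Log2 CPM of each tested member minus the gene's mean over all 6 libraries (vertical axis) in each library (horizontal axis, irradiated left of the dotted line and untreated right of it), with a black bar for the mean of the genes. The bar for the glucocorticoid-induced genes runs from -0.74 to 0.35 in irradiated libraries and from 0.20 to 0.22 in untreated libraries.

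Fkbp5 had one of the widest spreads among irradiated glands for a gene of its level. For Fkbp5 the SD of log2 CPM was 1.11 over irradiated glands and 0.127 over untreated glands. Among the 5814 genes with a mean of at least 10 CPM, 0.826% had a larger irradiated SD, and 111 had a larger ratio of irradiated to untreated SD. For Tsc22d3 the SD was 0.253 over irradiated glands and 0.0174 over untreated glands, and for Ier2 it was 0.409 over irradiated glands and 0.0589 over untreated glands. Egr1 and Sgk1 went the other way, with 0.852 and 0.186 over irradiated glands and 1.07 and 0.249 over untreated glands. The medians over those 5814 genes were 0.140 over irradiated glands and 0.132 over untreated glands. Over all tested genes they were 0.199 in irradiated and 0.199 in untreated glands. Egr1, at means of 5.43 CPM in irradiated and 7.05 CPM in untreated glands, lay below the level of those 5814 genes. An SD over 3 libraries is itself imprecise, and these differences in spread were not tested.

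**Figure D4:**
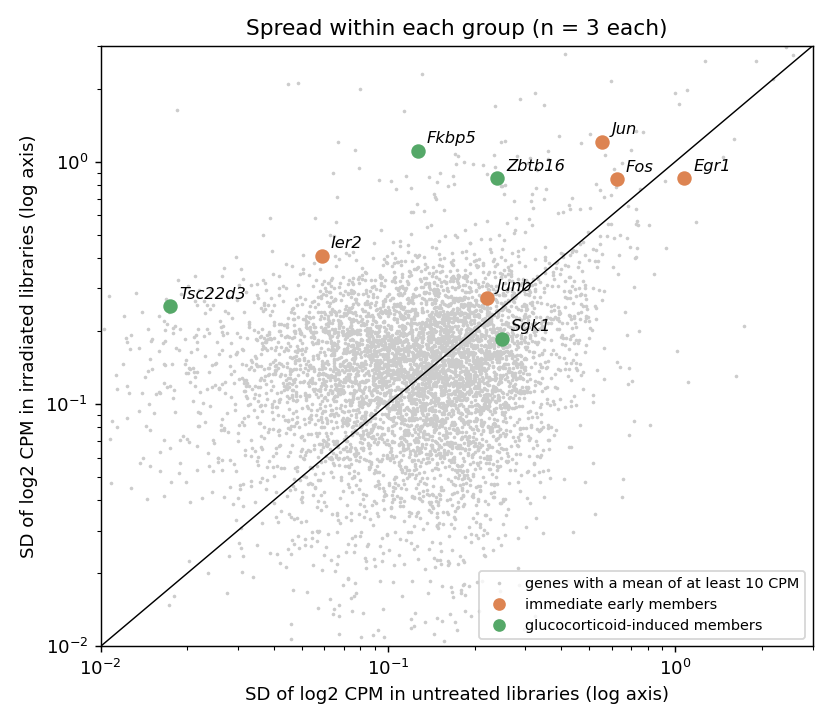
SD of log2 CPM over the 3 irradiated libraries (vertical log axis) against that over the 3 untreated libraries (horizontal log axis) for the 9 tested members and, in grey, for the 5814 genes with a mean of at least 10 CPM, of which 65 lie outside the axes; the line marks equal spread. Fkbp5, at 1.11 over irradiated and 0.127 over untreated libraries, lies far above the line, and Egr1 and Sgk1 lie below it. Fos, Junb, Egr1 and Zbtb16 themselves average less than 10 CPM.

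Levels can be ranked between genes only per length. The length used was that of all annotated exons of a gene merged. For Fkbp5 it was 9468 bases, against 3858 in its longest transcript, and for Sgk1 it was 4903 against 3096. An order by longest transcript was not computed and could differ. As CPM per kilobase of exon, averaged over all 6 libraries, Jun was highest at 12.1 and Ier2 followed at 8.82. Tsc22d3 at 4.95, Sgk1 at 4.26, Junb at 4.11 and Fkbp5 at 2.96 formed the middle of the order. Zbtb16 at 1.86, Egr1 at 1.39, Fos at 0.534 and Fosb at 0.0438 closed it. Neighbours in this order overlapped in their ranges over libraries, except that Ier2 was above Tsc22d3 and Fos above Fosb in every library. Fos and Fosb were thus far below Jun in message per length in irradiated and untreated glands alike.

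None of the other immediate early genes passed the test. Of 39 listed, 34 were tested, 0 were called higher and 0 lower, and the median log2 fold change was 0.16, with 22 positive and 12 negative, beside -0.01 over all genes. With an unadjusted p under 0.05 there were 7 of 34 genes, beside 14.97% of all tested genes, and DESeq2 and limma-voom called 0. In edgeR 2 were called higher without irradiated replicate 3, and 1 was called lower without untreated replicate 3. With library totals alone 1 was called higher, and without the filter 1 was called higher and 1 lower. Nr4a1, an orphan nuclear receptor, stood at 62.3, 39.0 and 37.3 CPM in irradiated replicates 1, 2 and 3, against 37.6, 54.3 and 40.0 CPM in untreated replicates 1, 2 and 3. Per1, a clock gene that glucocorticoids and immediate early signals both induce, stood at 41.4, 30.7 and 35.8 CPM in irradiated replicates 1, 2 and 3, against 40.4, 60.1 and 34.0 CPM in untreated replicates 1, 2 and 3. Both overlapped between the groups, with Nr4a1 highest in irradiated replicate 1 and Per1 highest in untreated replicate 2.

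Irradiated replicates 1 and 2 were the highest libraries for most of that list. Of the 34 genes, 12, 10 and 2 were highest in irradiated replicates 1, 2 and 3, against 1, 7 and 2 in untreated replicates 1, 2 and 3. Irradiated replicate 3 was the lowest library for 10 of them. Ier3, a stress-induced survival gene picked here after its values were seen, stood at 32.6, 19.1 and 5.27 CPM in irradiated replicates 1, 2 and 3, against 9.79, 16.6 and 5.94 CPM in untreated replicates 1, 2 and 3. Dusp1, a phosphatase that switches off stress kinases and was picked in the same way, stood at 15.3, 9.02 and 2.59 CPM in irradiated replicates 1, 2 and 3, against 7.49, 15.7 and 3.47 CPM in untreated replicates 1, 2 and 3. Both were lowest in irradiated replicate 3, as were Fos, Egr1 and Ier2. Among the kinases and factors that act upstream of these genes, 20 of 20 were tested, 0 were called in either direction by edgeR, DESeq2 or limma-voom, 4 had an unadjusted p under 0.05 in edgeR, and the median was 0.04. Mapk9, which encodes a JNK kinase, had a log2 fold change of -0.04.

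Among other glucocorticoid-induced genes, 2 passed the test and both were lower in irradiated glands. Of 26 listed, 24 were tested, and 0 were called higher and 2 lower, beside 0.349% of all tested genes called lower. The median was -0.14, with 19 negative against 5 positive fold changes. With an unadjusted p under 0.05 in edgeR there were 7 of the 24, beside 14.97% of all tested genes. Per1, Dusp1 and Nfkbia stand both in this list and among the other immediate early genes, so the 2 lists are not independent. Klf9, a Krüppel-like transcription factor, fell to 53.9, 59.7 and 64.4 CPM in irradiated replicates 1, 2 and 3, against 80.9, 82.2 and 85.9 CPM in untreated replicates 1, 2 and 3. The difference was -0.48 on the log2 scale (SE 0.11) at an adjusted p of 0.0302 in edgeR (quasi-likelihood test, Benjamini-Hochberg). Crispld2, a secreted protein, fell to 10.9, 13.2 and 15.8 CPM in irradiated replicates 1, 2 and 3, against 20.7, 18.5 and 23.5 CPM in untreated replicates 1, 2 and 3. The difference was -0.66 on the log2 scale (SE 0.15) at an adjusted p of 0.0329 by the same edgeR test. The groups did not overlap for 5 of the 24 tested genes of this list, these 2 among them, beside the share of 21.2% over all tested genes.

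These calls lie close to the threshold. Klf9 was no longer called without irradiated replicate 1 or without any one of the untreated replicates, at adjusted p-values from edgeR of 0.194, 0.0635, 0.102 and 0.0944. Crispld2 was no longer called without irradiated replicate 1 or 2 or without untreated replicate 1 or 3, at edgeR adjusted p-values of 0.202, 0.0770, 0.0614 and 0.117. Neither gene was called by limma-voom, at adjusted p-values of 0.0867 for Klf9 and 0.0954 for Crispld2, while DESeq2 called both. In edgeR both calls were also lost without robust shrinkage and with library totals alone, at adjusted p-values between 0.0817 and 0.0973. Among 16 genes of the receptor machinery, all tested, 0 were called in either direction by edgeR, DESeq2 or limma-voom, 2 had an unadjusted p under 0.05 in edgeR, and the median was 0.03. Nr3c1, the glucocorticoid receptor itself, given here for its role, differed by 0.17 on the log2 scale (SE 0.13), and its chaperones Hsp90ab1 and Hspa8 of -0.09 and 0.10. The clock list, whose genes the hormone rhythm also drives, had 3 genes called lower and 0 higher of 19 tested. Among all tested genes 0.349% were called lower and 0.652% higher. Fold changes in the list went both ways, 13 negative and 6 positive, from -2.13 to 2.41 with a median of -0.46. The groups did not overlap for 14 of the 19, beside 21.2% of all tested genes. The 3 called lower were Usp2, Ciart and Tef, at log2 fold changes of -0.82, -2.13 and -0.69. Usp2 was called in all 15 alternatives, while Ciart and Tef each lost the call in 6, with limma-voom at adjusted p-values of 0.131 for Ciart and 0.0891 for Tef. With 1 library left out, between 1 and 7 clock genes were called lower and between 0 and 2 higher.

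**Figure D5:**
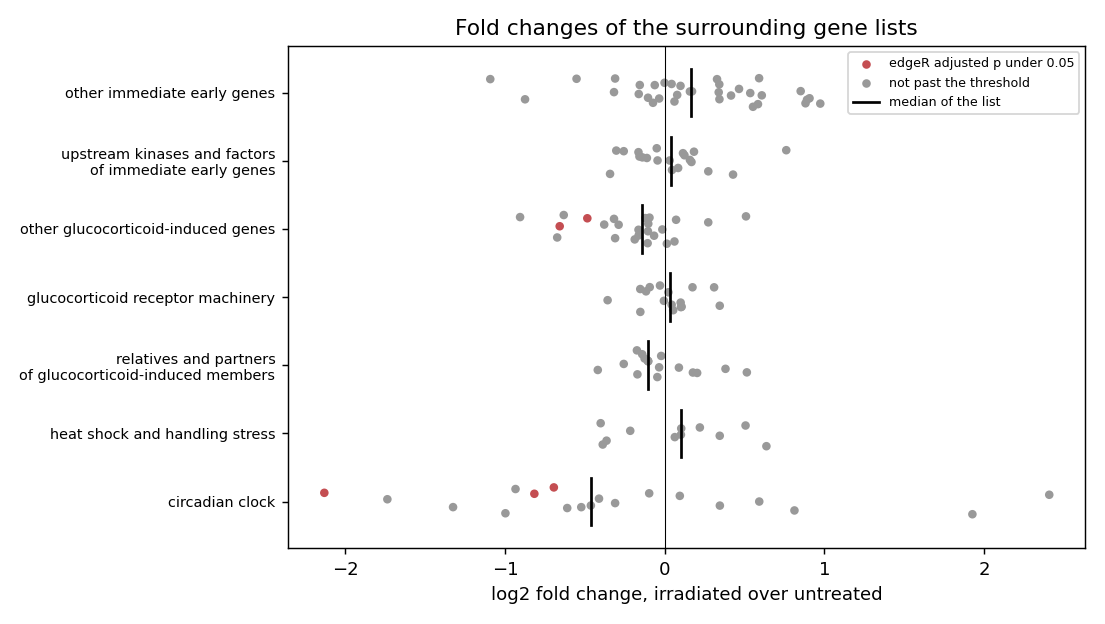
Log2 fold change, irradiated over untreated (horizontal axis), of each tested gene of 7 lists around the members, with a black bar for the median of the list and red points for genes with an edgeR adjusted p under 0.05. The red points, Klf9 and Crispld2 among other glucocorticoid-induced genes and Usp2, Ciart and Tef among clock genes, are all on the lower side.

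The genes whose pattern over the 6 libraries was most like the mean of each arm were found among 8032 tested non-members with a mean of at least 5 CPM. For the immediate early genes these were Sik1, Depdc5, Paox, Tiam2 and Pafah2, with a root mean square difference in centred log2 CPM of 0.0930 for Sik1 and between 0.184 and 0.207 for the others. Sik1, a salt-inducible kinase, stood at 8.12, 8.30 and 4.66 CPM in irradiated replicates 1, 2 and 3, against 5.27, 8.92 and 4.60 CPM in untreated replicates 1, 2 and 3. For the glucocorticoid-induced genes they were Mettl7a1, Trpm4, Mief2, Abo and Usp30, with differences between 0.124 and 0.144. Mettl7a1, the nearest of these, stood at 6.73, 15.9 and 11.7 CPM in irradiated replicates 1, 2 and 3, against 12.6, 13.2 and 14.9 CPM in untreated replicates 1, 2 and 3. None of the 10 was called.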

How the data were processed

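Total RNA from parotid glands was made into libraries with a stranded kit, per the labels' protocols. Each deposited table holds the raw read count of every Ensembl gene in 1 sample, without normalization. The tools bcl2fastq, HISAT2 and HTSeq and the genome build mm10 are named in the submitters' processing notes. Not given in the sources used here are their versions, the annotation release and the strand setting. The groups come from the treatment label of each sample. The protocol text that names the 5 Gy dose stands on untreated samples too and was applied to the irradiated group.

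Rows that name no gene held 32.4% to 40.7% of the reads of a library and were left out. Of 52636 genes, 52403 matched a symbol in GENCODE M21, whose build is that of the files, and 233 did not. The edgeR 4.0.16 quasi-likelihood test (R 4.3.3; robust, TMM scaling, filterByExpr with a minimum count of 10) was fitted over all genes, with Benjamini-Hochberg adjustment and a threshold of 0.05. It was tested on simulated data. CPM are counts over the library total times its TMM factor, log2 CPM use a prior count of 2, and the SE is the log2 fold change over the square root of F. An exact permutation test of 3 against 3 libraries cannot go below p = 0.1 and was not used. DESeq2 1.42.0, limma 3.58.1 and other settings were alternatives. The members and lists were chosen with earlier results of these data known. The genes named are the members, up to 4 called genes of each list or else its 2 most abundant, the 5 genes most like each arm, and Cdkn1a. Nr3c1, Ier3, Dusp1 and Nfkbia are named outside this rule. 1 gene that the rule names is not reported here.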

Additional observations from a re-analysis of the deposited data

Results flagged for a closer look

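The share of reads that were not aligned was 10.01% in irradiated replicate 2, against 3.75% to 4.33% in the other libraries, a difference in reads outside the gene counts. That library also held 184 reads set aside for low alignment quality, against 342749 to 491591 in the others. Among the members it had the highest levels of Fos, Ier2 and Fkbp5, and it was the irradiated gland with the most Zbtb16. Whether its processing bears on these values was not tested.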

How the results depend on the processing

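Of 15 alternatives, the count of immediate early members called was 0 in all 15, and the arm medians lay between -0.04 and 0.50 for the immediate early genes and between -0.28 and 0.15 for the glucocorticoid-induced genes. The called glucocorticoid-induced members were 1 (Zbtb16) without the filter on low counts and 0 to 1 with a library left out. Over all genes 84 were called higher and 45 lower. These became 260 and 22 with library totals alone, which shifts the median of all genes to 0.14, 279 and 239 without the filter, 21 and 5 without robust shrinkage, and 20 and 5 with limma-voom. DESeq2 called 70 lower. With 1 library left out, 31 to 83 were called higher and 14 to 72 lower, the fewest without irradiated replicate 1 and the most without irradiated replicate 3. Lower calls were 29 and 21 without untreated replicates 1 and 2.

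The labels do not say whether the replicate numbers pair samples. Same-numbered deviations from the group means correlated at 0.02, -0.11 and -0.11, and differently numbered ones from -0.03 to 0.12. With 3 libraries per group these values cannot decide pairing. The replicate block called 39 higher and 14 lower, and Klf9 and Crispld2 were not called under it, at edgeR adjusted p-values of 0.0984 and 0.0608.

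Signs of members near 0 turned. With limma-voom Fos had -0.0412, Junb -0.00038, Fkbp5 -0.24 and Tsc22d3 -0.0255. With the replicate block Fkbp5 had -0.0915 and Tsc22d3 -0.0032. Tsc22d3 had -0.0069 without the filter and -0.0336 with a length and GC offset, and Sgk1 had 0.15 with library totals alone. With 1 library left out the ranges were -0.55 to 0.53 for Fos, -0.0814 to 0.19 for Junb, -0.74 to 0.50 for Egr1, -0.0356 to 0.33 for Ier2, -0.47 to 0.51 for Fkbp5, -0.0916 to 0.14 for Tsc22d3 and -0.10 to 0.14 for Sgk1. The cause was not tested in any of these. Depth limits Fos and Fosb most, at no more than 22 reads in a library.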

Other observations

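Relatives and partners of the glucocorticoid-induced members were 18 genes, of which 17 were tested, 0 were called in either direction by edgeR, DESeq2 or limma-voom, 2 had an unadjusted p under 0.05 in edgeR, and the median log2 fold change was -0.10, with 12 negative and 5 positive. Fkbp8, a relative of Fkbp5 that anchors at the mitochondrion, stood at 42.8, 43.1 and 42.3 CPM in irradiated replicates 1, 2 and 3, against 62.7, 53.7 and 55.03 CPM in untreated replicates 1, 2 and 3. Its log2 fold change of -0.42 missed the threshold at an adjusted p of 0.0614 in the edgeR quasi-likelihood test. Zbtb20, a zinc finger repressor related to Zbtb16, stood at 86.1, 86.6 and 85.9 CPM in irradiated replicates 1, 2 and 3, against 91.3, 105 and 95.1 CPM in untreated replicates 1, 2 and 3. In both genes the irradiated glands were nearly level and all below the untreated ones, unlike Zbtb16, whose irradiated glands spread widely.

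Heat shock and handling stress genes were 12, of which 11 were tested, 0 were called in either direction by edgeR, DESeq2 or limma-voom, 3 had an unadjusted p under 0.05 in edgeR, and the median was 0.10. Some genes of this list, Hspa8 among them, also stand in the list of receptor machinery. Hspa5, the chaperone of the endoplasmic reticulum, stood at 496, 458 and 502 CPM in irradiated replicates 1, 2 and 3, against 467, 420 and 468 CPM in untreated replicates 1, 2 and 3. Hspa8, the constitutive cytosolic chaperone, stood at 347, 360 and 291 CPM in irradiated replicates 1, 2 and 3, against 307, 317 and 305 CPM in untreated replicates 1, 2 and 3.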
